A study of Mus musculus with 16 samples.

Results

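Carriers for amino acids and small peptides were followed in 2 white fat depots of obese mice. They were taken as every probe whose name on the array places it in SLC (solute carrier) family 1, 3, 6, 7, 15, 36, 38 or 43, which gave 85 of the 25697 probes and 59 of the 18138 gene names. One of these names, SLC7A6OS, belongs to a gene on the strand opposite Slc7a6 that is no carrier, and setting it apart left 84 probes for 58 transporter genes. The name alone decides membership, so the set also takes in family members with other cargo: the monoamine carriers Slc6a2, Slc6a3 and Slc6a4 and the creatine carrier Slc6a8. No probe carried the name Slc7a5 or Slc43a1, and these 2 genes were not analysed here.

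The 16 Illumina bead arrays came from male C57BL/6J mice made obese on a high-fat diet and housed singly. From 17 to 21 weeks of age they ate a diet with 60% of its calories as fat, either supplemented with 1% w/w Artemisia scoparia extract (scoparia) or without it (control), so that the control mice were obese too. Inguinal fat (iWAT), which lies under the skin, and epididymal fat (eWAT), a visceral depot, gave 4 arrays per diet: iWAT scoparia, iWAT control, eWAT scoparia and eWAT control. The animal numbers in the labels recur across depots, so 8 mice were taken to have given 1 array per depot. The extract was tested as a whole mixture at 1 dose and 1 time. Between 34 and 46 of the transporter probes were detected per array (detection p, the comparison with the array's negative control beads, under 0.05), among 50.5% to 56.2% of all probes.

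Some arrays stood apart from their group. For many transporters iWAT control arrays 1 and 4 lay on one side and arrays 2 and 3 on the other, and eWAT control array 2 lay away from the other 3 of its group. The mean log2 level of 8 adipocyte markers was 11.57 to 12.23 on iWAT scoparia, 12.05 to 12.45 on iWAT control, 11.15 to 11.70 on eWAT scoparia and 11.16 to 12.34 on eWAT control arrays, so the defining genes of adipocytes were bright in both depots. In whole tissue, fewer cells of a type and less RNA per cell cannot be told apart. All levels are log2 normalized intensities, which compare a probe between arrays but not 1 probe with another. Differences are log2 differences ± SE, tested with limma, and adjusted p values are Benjamini-Hochberg values over all 11050 genes tested.

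Amino acids cross membranes on carriers that couple them to sodium or protons, or that exchange 1 amino acid for another. Family 1 takes up glutamate and neutral amino acids, family 6 takes up taurine, creatine, glycine, proline and betaine with sodium and chloride, and family 38 takes up glutamine and other small neutral amino acids. Most light chains of family 7 work as exchangers bound to the heavy chain Slc3a2, also called 4F2hc or CD98. Families 15 and 36 carry small peptides and amino acids with protons, at the cell surface or out of lysosomes, and Slc38a9 is the lysosomal arginine sensor that signals to the growth kinase complex mTORC1. In adipose tissue Slc7a10 is known as a surface marker of white adipocytes and Slc36a2 as one of brown adipocytes.

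The regions around the start sites of 5 of these genes are shown because the first 4 had a probe that passed for diet in iWAT, and because the fifth holds the amino acid response element. That element binds C/EBP and ATF factors and was searched for as TGATGNAAN on both strands. The sequences are RefSeq's for build GRCm38.p6, each with 250 bases before and 50 after the start, written 5′ to 3′ on the gene's strand, and capitals mark a match. Slc15a2 lies at chr16:36784913-36785212 on the minus strand, Slc38a9 at chr13:112660516-112660815 on the plus strand, Slc38a2 at chr15:96699679-96699978 on the minus strand, Slc7a8 at chr14:54781837-54782136 on the minus strand and Slc7a11 at chr3:50443564-50443863 on the minus strand.
Slc15a2: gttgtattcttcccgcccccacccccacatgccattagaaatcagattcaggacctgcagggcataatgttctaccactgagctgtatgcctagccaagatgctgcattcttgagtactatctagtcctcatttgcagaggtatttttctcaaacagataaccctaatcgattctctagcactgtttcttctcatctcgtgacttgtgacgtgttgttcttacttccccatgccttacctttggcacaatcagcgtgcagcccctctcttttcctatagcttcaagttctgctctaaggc
Slc38a9: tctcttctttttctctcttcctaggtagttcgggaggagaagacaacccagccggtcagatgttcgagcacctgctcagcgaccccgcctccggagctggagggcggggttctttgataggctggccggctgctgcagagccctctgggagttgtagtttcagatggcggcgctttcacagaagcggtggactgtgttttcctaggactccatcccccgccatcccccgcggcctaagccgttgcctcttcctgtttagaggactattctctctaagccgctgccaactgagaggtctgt
Slc38a2: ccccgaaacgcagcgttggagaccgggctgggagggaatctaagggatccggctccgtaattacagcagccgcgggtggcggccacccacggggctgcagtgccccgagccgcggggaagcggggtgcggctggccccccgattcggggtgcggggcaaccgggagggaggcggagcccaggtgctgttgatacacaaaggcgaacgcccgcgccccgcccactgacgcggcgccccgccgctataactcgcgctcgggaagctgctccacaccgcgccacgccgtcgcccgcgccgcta
Slc7a8: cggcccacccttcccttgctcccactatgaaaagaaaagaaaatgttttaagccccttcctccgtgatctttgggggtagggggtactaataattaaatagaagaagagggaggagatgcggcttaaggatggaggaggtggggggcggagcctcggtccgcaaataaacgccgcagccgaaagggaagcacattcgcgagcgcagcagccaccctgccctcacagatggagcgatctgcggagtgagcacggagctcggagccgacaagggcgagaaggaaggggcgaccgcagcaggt
Slc7a11: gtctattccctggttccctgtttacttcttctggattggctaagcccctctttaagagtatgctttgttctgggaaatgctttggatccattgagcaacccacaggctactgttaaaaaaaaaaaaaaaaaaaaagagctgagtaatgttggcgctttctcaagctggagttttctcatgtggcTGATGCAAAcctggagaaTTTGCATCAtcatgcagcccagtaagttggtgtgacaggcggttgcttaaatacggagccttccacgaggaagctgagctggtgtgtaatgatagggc

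The Slc7a11 window held 2 matches, TGATGCAAA starting 66 bases before the start site on the gene's own strand, and the same letters on the opposite strand, printed as TTTGCATCA from 48 bases before the start. The windows of Slc15a2, Slc38a9, Slc38a2 and Slc7a8 held 0 matches, which says only that these letters are not in these windows. RefSeq's table had windows for 40 of the 58 transporter genes. Among their 61 windows 4 held a match (6.56%), in Slc7a11, Slc1a4 and Slc7a7, against 1299 of 32851 windows (3.95%) over all genes in the table. Slc7a7 gave 2 of these windows, which overlap and share a match. Counted by gene, 3 of the 40 transporter genes held a match, against 1215 of 27025 genes in the table. The windows differed in base composition, with 41 CpG pairs and 73.0% G and C in Slc38a2, against 5 CpG pairs and 46.3% in Slc15a2.

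Which carriers the arrays could see in white fat was read from detection. An undetected probe does not show that its carrier is absent, and a few detections can arise from background. Of the 58 transporter genes, 22 had a probe detected on all 16 arrays, 8 were detected on 1 to 3 arrays and 15 on 0 arrays. Probes detected on at least 4 arrays were kept, which left 43 probes for 35 genes, and each gene was tested on the kept probe with the highest mean. The 23 genes left out include the nervous system carriers Slc6a3, Slc6a5 and Slc6a11, the intestinal peptide carrier Slc15a1, and Slc7a1, the widely expressed carrier of cationic amino acids. Both probes of Slc7a1 were detected on 0 arrays, with detection p of at least 0.0790, so no level is given for it. Slc43a3, a carrier of purine bases, was detected on 1 array.

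Families differed in how many members could be seen. All but Slc1a2 of the 7 genes of family 1 were tested, as were Slc3a2, 8 of 18 genes of family 6, 8 of 14 of family 7, 3 of 4 of family 15, 2 of 3 of family 36, 6 of 9 of family 38 and 1 of 2 of family 43. Detection on all 4 arrays of a group held for 26 genes in iWAT scoparia, 26 in iWAT control, 29 in eWAT scoparia and 28 in eWAT control mice. Detection differed between groups for several genes, among them Slc38a5, on 0 of 8 iWAT and 8 of 8 eWAT arrays, Slc43a2, on 0 iWAT control and 4 eWAT control arrays, Slc15a2, on 4 iWAT scoparia and 1 iWAT control array, and Slc6a7, on 3 iWAT scoparia and 0 iWAT control arrays.

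**Figure D1:**
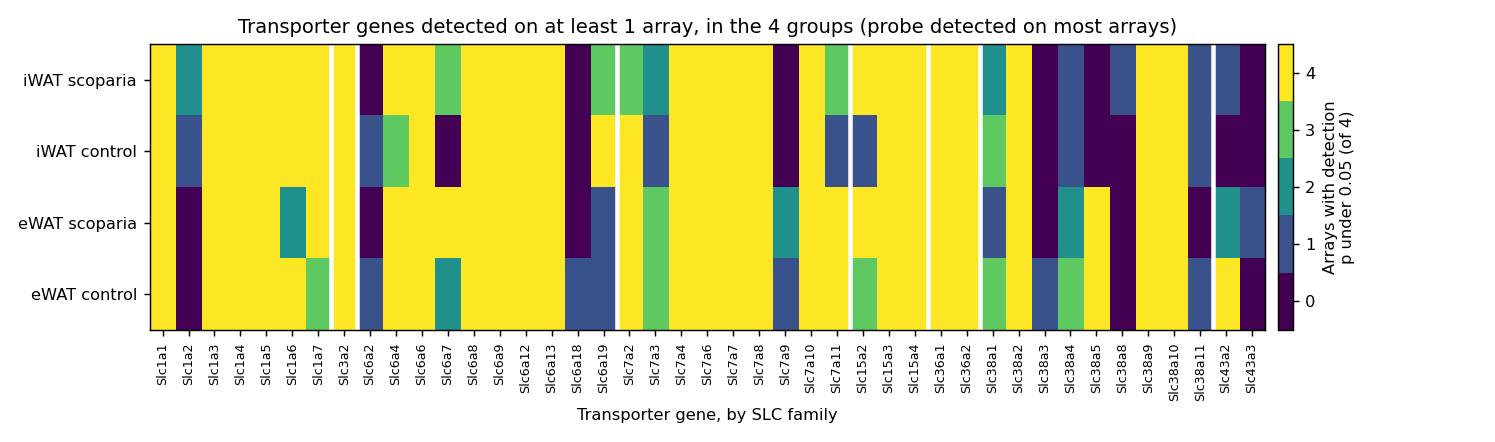
Number of arrays, of 4 in each group, on which the best detected probe of a transporter gene passed a detection p of 0.05, for the 43 of 58 genes detected on at least 1 array; rows are the groups, columns the genes, and white lines part the SLC families. Slc38a5 is dark in both iWAT rows and fully detected in both eWAT rows, and the 15 genes detected on 0 arrays are not drawn.

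Slc7a10, Slc6a13 and Slc1a3 were detected on all 16 arrays, and their levels overlapped between the diets in each depot. Slc7a10, an exchanger of small neutral amino acids, read 12.40, 12.45, 11.96 and 11.62 on iWAT scoparia arrays 1 to 4, against 12.31, 11.92, 12.27 and 12.32 on the iWAT control arrays. In eWAT it read 11.95, 11.51, 11.53 and 11.97 on the scoparia arrays and 11.59, 12.09, 11.08 and 11.54 on the control arrays. The diet groups overlapped in both depots, and the difference was -0.10 ± 0.23 in iWAT and 0.16 ± 0.23 in eWAT (adjusted p = 0.780 and 0.956). Between depots it was 0.63 ± 0.23 higher in iWAT of control mice, which missed the threshold (adjusted p = 0.0527).

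Slc6a13, which carries taurine and GABA, averaged 11.01 ± 0.69 in iWAT scoparia, 11.43 ± 0.82 in iWAT control, 10.80 ± 0.24 in eWAT scoparia and 10.97 ± 0.70 in eWAT control mice (SD, n = 4 each). Slc1a3, a glutamate carrier, averaged 11.91 ± 0.22 in iWAT scoparia and 11.98 ± 1.33 in iWAT control mice, and 11.40 ± 0.41 in eWAT scoparia and 11.55 ± 0.39 in eWAT control mice. Neither differed beyond the spread of its arrays in any comparison. The wide iWAT control spread of Slc1a3 came from 12.90 and 13.35 on arrays 2 and 3, against 10.72 and 10.97 on arrays 1 and 4. Slc6a13 went the other way on the same arrays, at 10.69 and 10.74 on arrays 2 and 3 and 12.09 and 12.18 on arrays 1 and 4. Slc36a1, a proton-coupled carrier of lysosomes, also parted there, with 6.24 and 6.51 on iWAT control arrays 1 and 4 and 5.18 and 5.20 on arrays 2 and 3.

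Whether the extract altered these carriers in iWAT was the first comparison. Slc15a2, which takes up small peptides with protons, and Slc38a9, the lysosomal arginine sensor, rose, whereas Slc7a8, an exchanger of neutral amino acids also called LAT2, and Slc6a12, the betaine and GABA carrier, fell. These 4 of the 35 tested genes (11.4%) passed an adjusted p of 0.05, beside 972 of all 11050 genes (8.8%), so the share of transporters called lay near that of all genes. Of all genes 4.41% rose and 4.39% fell. At an unadjusted p of 0.05, 8 transporters and 32.8% of all genes passed. The median difference was -0.19 over the transporters and -0.06 over all genes, and 10 of the 35 had a positive difference, against 45.6% of all genes. The 4 calls depended on single arrays, as given below.

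Slc15a2 read 7.49, 6.34, 7.61 and 8.25 on the iWAT scoparia arrays, against 5.20, 5.02, 5.55 and 5.14 on the iWAT control arrays. Every scoparia array lay above every control array, and the probe was detected on 4 scoparia arrays but on 1 control array. The difference was 2.19 ± 0.46 (adjusted p = 0.0203), set against a control level near background on 3 of 4 arrays. In eWAT Slc15a2 read 6.91, 5.60, 6.82 and 7.56 in scoparia and 6.59, 5.24, 4.99 and 6.76 in control mice, and these groups overlapped (0.83 ± 0.46, adjusted p = 0.896).

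Slc38a9 read 7.38, 7.56, 7.87 and 8.04 in iWAT scoparia and 6.27, 6.89, 7.45 and 6.22 in iWAT control mice. The groups met at 1 point, since control array 3 lay above scoparia array 1, and control arrays 1 and 4 were the lowest of the 8. The difference was 1.00 ± 0.24 (95% interval 0.49 to 1.52, adjusted p = 0.0281). A further kept probe, ILMN_2831268, moved alike when every kept probe was tested as a unit of its own (0.99 ± 0.26, adjusted p = 0.0347). It was detected on 4 iWAT scoparia arrays and 2 iWAT control arrays. In eWAT Slc38a9 lay the other way, at 7.98, 7.65, 7.77 and 7.65 in scoparia and 8.08, 7.98, 8.54 and 8.18 in control mice, where the difference of -0.43 ± 0.24 missed the threshold (adjusted p = 0.896).

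Slc7a8 read 8.38, 8.52, 8.13 and 7.53 in iWAT scoparia, against 9.30, 8.82, 8.83 and 9.41 in iWAT control mice. All scoparia arrays lay below all control arrays, with a difference of -0.95 ± 0.20 (1.93-fold lower in scoparia mice, adjusted p = 0.0211). Its second probe, ILMN_2780392, differed by -1.02 ± 0.25 (adjusted p = 0.0306). In eWAT Slc7a8 read 8.53, 8.43, 8.59 and 8.68 in scoparia and 8.72, 9.02, 8.74 and 8.71 in control mice, also without overlap but by a small amount (-0.24 ± 0.20, adjusted p = 0.935).

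Slc6a12 read 6.93, 7.04, 6.78 and 6.37 in iWAT scoparia and 7.50, 7.38, 7.82 and 7.94 in iWAT control mice. The groups did not overlap, and the difference was -0.88 ± 0.20 (1.84-fold lower in scoparia mice, adjusted p = 0.0232). In eWAT it averaged 6.64 ± 0.19 in scoparia and 6.65 ± 0.30 in control mice, with a difference of -0.02 ± 0.20. The iWAT scoparia level thus stood near the eWAT levels, and the iWAT control level above them.

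**Figure D2:**
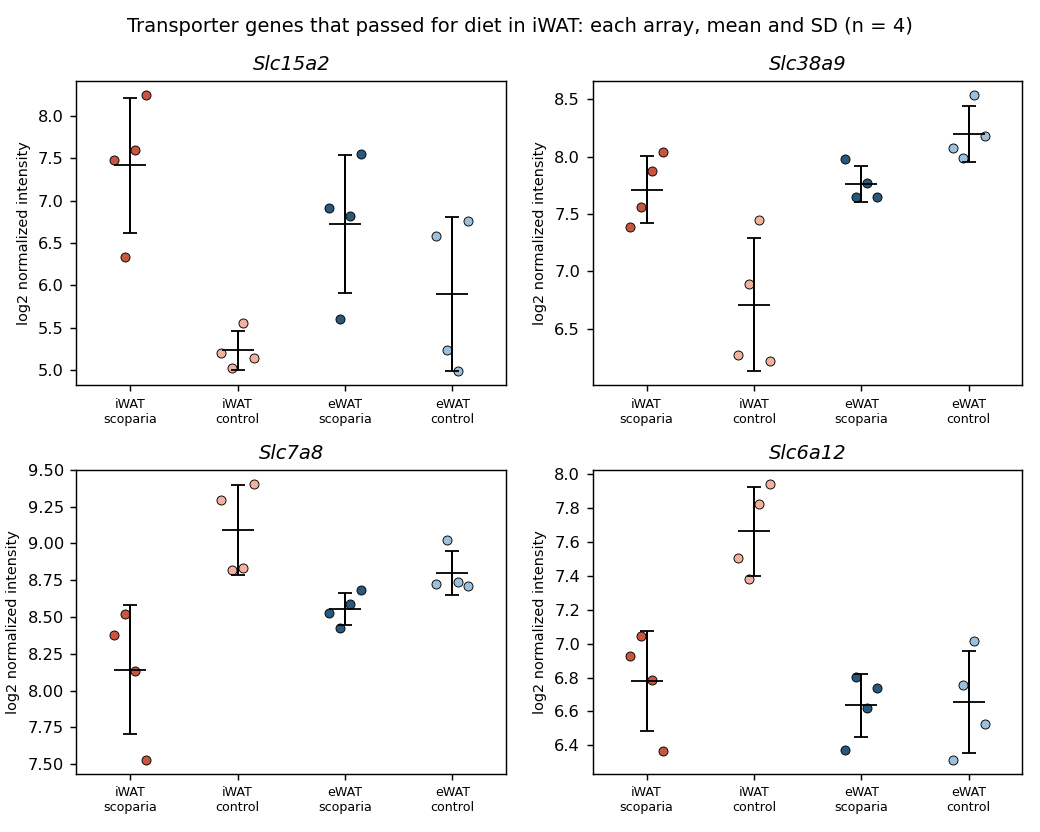
Log2 normalized intensity of the 4 transporter genes that passed for diet in iWAT, for each array (points) in the 4 groups, with the group mean (wide tick) and SD (bar, n = 4). Scoparia and control arrays of iWAT do not overlap for Slc15a2, Slc7a8 and Slc6a12, and they overlap for Slc38a9, where iWAT control arrays lie between 6.22 and 7.45.

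All 4 calls were lost (0 of 35 genes) without iWAT scoparia array 3, without iWAT control array 1, without iWAT control array 4 and without both of these control arrays, and 1 was left without iWAT scoparia array 4. Without both control arrays the differences were 2.13 for Slc15a2, 0.54 for Slc38a9, -0.69 for Slc7a8 and -0.82 for Slc6a12. With the 8 iWAT arrays alone 0 transporters and 0 of all genes passed. No call changed sign under any alternative. In iWAT the mean level of 7 tested B cell markers was 6.85 to 10.21 on scoparia arrays and 5.33 to 8.57 on control arrays, and that of 8 tested T and NK cell markers 7.82 to 10.89 and 6.94 to 9.56. Their median differences were 1.82 and 1.20, with 0 and 1 markers called, and Cd79a, Pax5, Cd8a and Cd4 were among the listed markers not tested. The adipocyte markers lay at 11.57 to 12.23 and 12.05 to 12.45, and skeletal muscle markers at 6.52 to 9.31 and 6.44 to 11.17. On iWAT control arrays 1 to 4 the muscle markers read 6.44, 8.77, 11.17 and 6.86. The adipocyte markers read 12.45, 12.05, 12.17 and 12.38 on these arrays, and the B cell markers 5.33, 8.57, 6.91 and 6.55. On iWAT scoparia arrays 1 to 4 the B cell markers read 6.85, 8.10, 9.22 and 10.21. The endothelial, stromal progenitor, mesothelial, macrophage, epithelial, red cell, and nerve and glia lists had 0 calls for diet in iWAT. The part of these cells in the transporter differences was not tested.

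Other carriers differed in iWAT without passing the threshold. The groups did not overlap for 6 of the 35 genes (17.1%), against 13.4% of all genes, and these were Slc15a2, Slc7a8, Slc6a12, Slc6a6, Slc6a7 and Slc6a8. Slc6a6, which takes up taurine, read 12.00, 12.41, 12.70 and 12.21 in scoparia and 11.69, 11.77, 11.65 and 11.49 in control mice (0.68 ± 0.28, adjusted p = 0.114). Every scoparia array exceeded every control array by a narrow margin. Slc6a7, the proline carrier known from brain, read 4.96, 5.63, 5.29 and 5.04 in scoparia and 4.51, 4.70, 4.84 and 4.52 in control mice (adjusted p = 0.0830). It was not detected on any iWAT control array, so the control level has only an upper bound and scoparia mice were at least 1.04-fold higher. Slc6a8, the creatine carrier, averaged 9.07 ± 0.35 in scoparia and 9.59 ± 0.17 in control mice (-0.52 ± 0.29, adjusted p = 0.217).

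Slc7a11, the cystine importer that feeds glutathione synthesis, had the widest scatter among the iWAT scoparia arrays. It read 4.87, 5.77, 6.41 and 7.74 in scoparia and 4.50, 6.26, 4.88 and 4.62 in control mice, and was detected on 3 and on 1 of 4 arrays. The difference of 1.13 ± 0.56 missed the threshold (adjusted p = 0.168). Among genes with negative differences, Slc15a4, a lysosomal carrier of peptides and histidine, differed by -0.48 ± 0.21 (adjusted p = 0.131) and Slc38a10, a carrier of family 38 with little described function, by -0.67 ± 0.33 (adjusted p = 0.172). Slc38a1, a sodium-coupled glutamine carrier detected on 9 of 16 arrays, differed by -0.37 ± 0.18 (adjusted p = 0.166), and Slc6a19, a neutral amino acid carrier known from gut and kidney, by -0.34 ± 0.19 (adjusted p = 0.216).

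**Figure D3:**
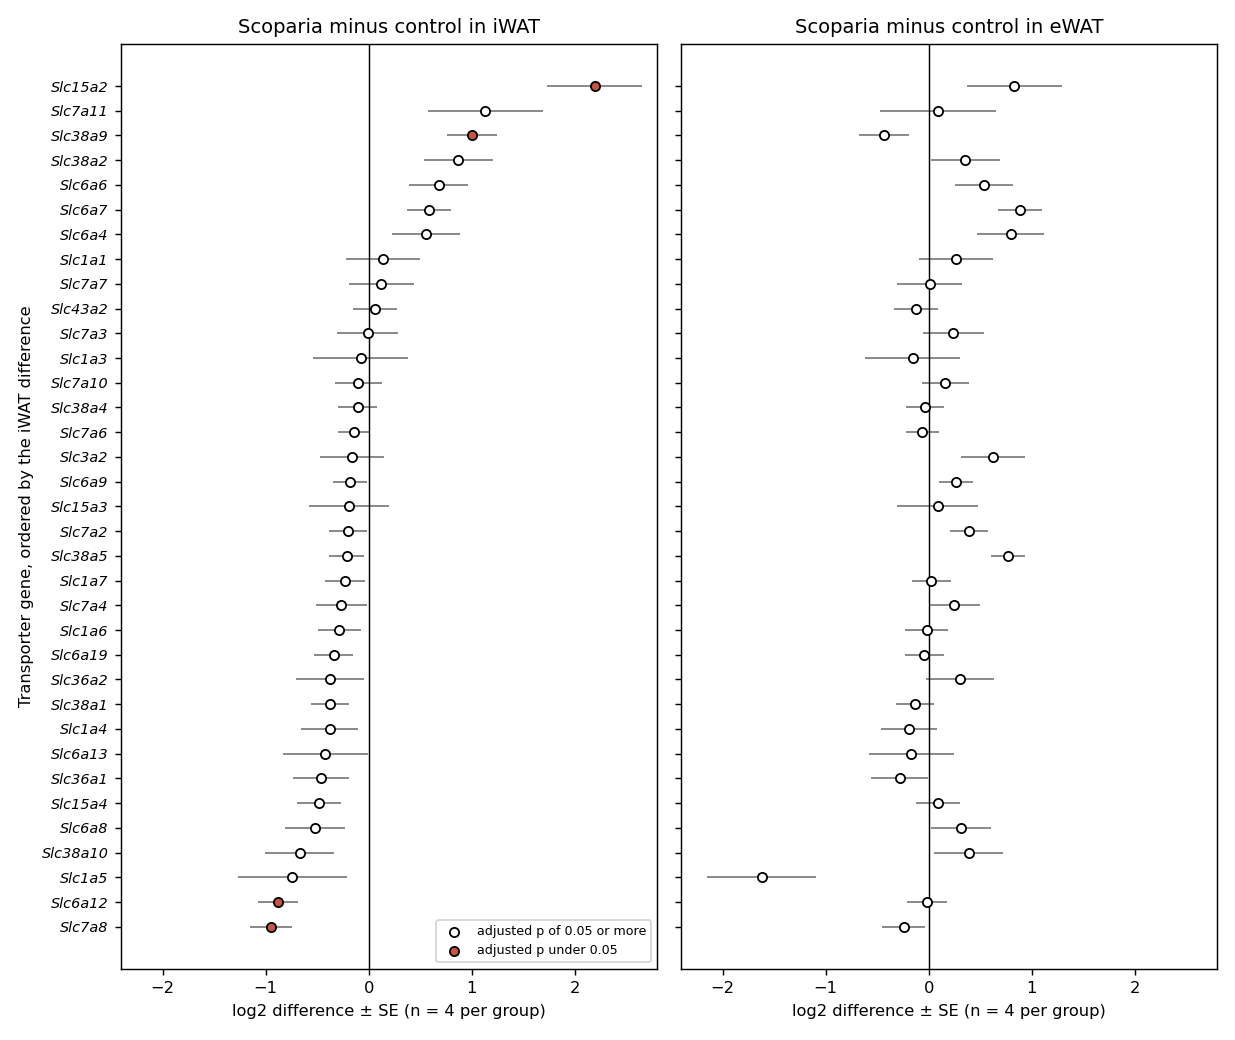
Log2 difference, scoparia minus control, of the 35 tested transporter genes in iWAT (left) and eWAT (right), ordered by the iWAT difference; bars are the SE, and filled points passed an adjusted p of 0.05. Slc15a2 at 2.19 and Slc7a8 at -0.95 mark the ends in iWAT, and no point is filled in eWAT.

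Probes of 1 gene disagreed for Slc38a2, the sodium-coupled neutral amino acid carrier also called SNAT2, whose message rises when amino acids are scarce. The probe that stands for the gene, ILMN_2955671, read 10.08, 9.93, 10.07 and 10.04 in iWAT scoparia and 8.19, 9.51, 10.19 and 8.76 in iWAT control mice (0.87 ± 0.33, adjusted p = 0.0898). The scoparia arrays were close together, and control arrays 1 and 4 were low. A second probe, ILMN_1244123, read 9.78, 10.19, 10.32 and 10.67 in iWAT scoparia and 8.23, 8.87, 9.52 and 7.92 in iWAT control mice, with no overlap. Tested as a unit of its own among 15052 probes, it rose by 1.60 ± 0.30 (adjusted p = 0.0176).

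In eWAT these 2 probes of Slc38a2 lay on opposite sides. ILMN_2955671 read 9.89, 9.85, 9.94 and 9.83 in scoparia and 9.35, 8.82, 10.02 and 9.90 in control mice, and ILMN_1244123 read 9.83, 8.94, 9.01 and 9.22 in scoparia and 9.88, 10.15, 9.87 and 9.85 in control mice. The second probe's difference was -0.69 ± 0.30 (adjusted p = 0.687), and the difference between its depot effects was 2.29 ± 0.42 (adjusted p = 0.0518). Both missed the threshold. Another probe, ILMN_2721692, was dim on all arrays, at 5.12 to 6.02, and differed by -0.27 ± 0.19 in iWAT (adjusted p = 0.337). The transcripts that each probe reads are not given in the files, so the level of Slc38a2 is uncertain.

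**Figure D4:**
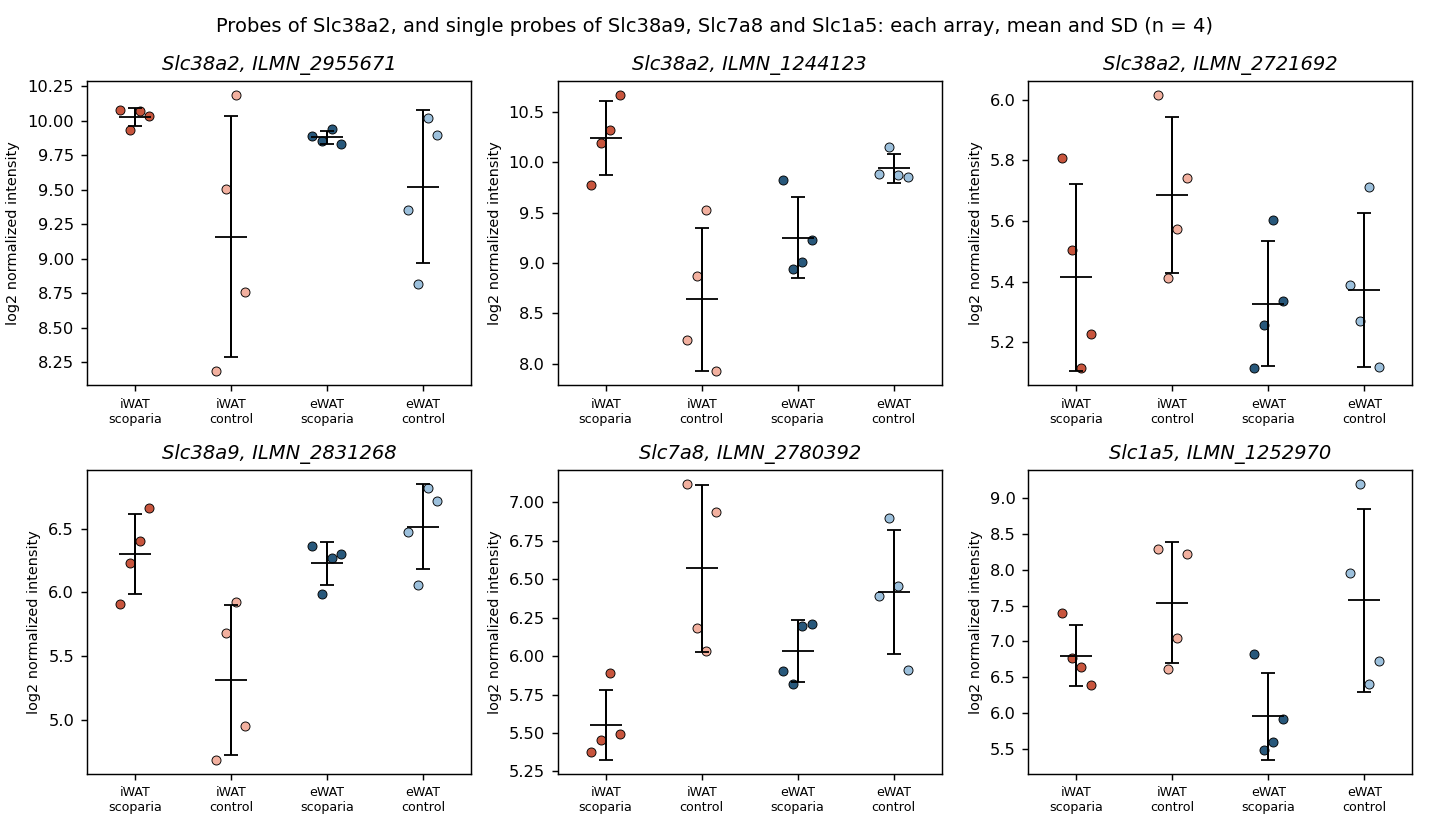
Log2 normalized intensity on each array (points), with group mean (wide tick) and SD (bar, n = 4), for 3 probes of Slc38a2, 1 further probe each of Slc38a9 and Slc7a8, and the probe that stands for Slc1a5. ILMN_1244123 of Slc38a2 separates the iWAT diets, and ILMN_2955671 does not, because iWAT control array 3 reads 10.19.

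In eWAT the same question gave 0 calls among the 35 transporters and 0 among all genes (0%), with 5 transporters and 654 of all genes (5.92%) under an unadjusted p of 0.05 by limma. The median difference was 0.09 over the transporters and 0.03 over all genes. The groups did not overlap for 5 of 35 genes (14.3%), against 5.14% of all genes: Slc38a5, Slc6a7 and Slc3a2 were higher and Slc38a9 and Slc7a8 lower in scoparia mice. Of all genes 2.72% lay apart and higher, and 2.42% apart and lower.

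Slc38a5, a glutamine carrier of the sodium and proton exchanging kind, read 6.23, 6.63, 5.97 and 6.27 in eWAT scoparia and 5.33, 5.30, 5.57 and 5.82 in eWAT control mice. The groups were clear of each other, at 0.77 ± 0.17, and the adjusted p was 0.238. Slc6a7 read 5.70, 6.29, 5.58 and 6.08 in scoparia and 5.24, 4.60, 5.46 and 4.82 in control mice (0.88 ± 0.22, adjusted p = 0.312), and it was detected on 4 and on 2 of 4 arrays. Slc3a2, the heavy chain, read 8.55, 8.52, 8.51 and 8.55 in scoparia and 7.79, 6.99, 8.48 and 8.39 in control mice. The scoparia arrays lay within a narrow band, control array 2 lay lowest, and the difference was 0.62 ± 0.31 (adjusted p = 0.859).

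Slc1a5, the glutamine carrier also called ASCT2, had the largest difference of the 35 in eWAT. It read 6.82, 5.49, 5.58 and 5.91 in scoparia and 7.95, 9.21, 6.41 and 6.72 in control mice (-1.62 ± 0.53, adjusted p = 0.526). The groups overlapped, and control arrays 1 and 2 were the high ones. Its second probe, ILMN_2593148, differed by -1.50 ± 0.53. In iWAT Slc1a5 read 7.40, 6.77, 6.64 and 6.39 in scoparia and 8.29, 6.61, 7.04 and 8.23 in control mice, and there control arrays 1 and 4 were high (-0.74 ± 0.53, adjusted p = 0.337).

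The other genes with small p values in eWAT were likewise short of the threshold. Slc6a4, the serotonin carrier, differed by 0.79 ± 0.33 (adjusted p = 0.758), Slc7a2, a carrier of cationic amino acids, by 0.39 ± 0.18 (adjusted p = 0.824) and Slc6a6 by 0.54 ± 0.28 (adjusted p = 0.896). Slc36a1 differed by -0.28 ± 0.28, Slc38a1 by -0.13 ± 0.18 and Slc1a4, a neutral amino acid carrier, by -0.19 ± 0.27. On eWAT control array 2 Slc6a6 read 11.16, against 12.46 to 12.92 on the other 3, and macrophage markers averaged 9.73 there, against 10.83 to 11.13 on the other 3. Adipocyte markers averaged 12.34 on that array, against 11.16 to 11.59, and endothelial markers 9.63, against 8.60 to 9.15. Their part in the eWAT differences was not tested.

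Over both depots, tested on the mean of each mouse's 2 arrays (4 scoparia and 4 control mice), 0 of 35 transporters and 0 of all genes (0%) passed. At an unadjusted p of 0.05 by limma, 10 transporters and 2390 genes (21.6%) did. The smallest adjusted p was 0.157, for Slc15a2 (1.51 ± 0.36), Slc6a7 and Slc7a8 (-0.60 ± 0.13). For Slc6a7 no size is given, because its iWAT control arrays were all at background. For these 3 genes alone every scoparia mouse lay on one side of every control mouse (8.57%, against 8.6% of all genes). Slc6a7 was detected on 3 iWAT and 4 eWAT scoparia arrays, against 0 and 2 control arrays. It passed the detection filter through the scoparia arrays, so its p value and its separation add no support beyond these counts. Slc6a6 differed by 0.61 ± 0.20 and Slc6a12 by -0.45 ± 0.15 (adjusted p = 0.170 each), and Slc6a4 by 0.67 ± 0.24 (adjusted p = 0.177). Slc1a5 differed by -1.18 ± 0.32 (adjusted p = 0.159), Slc38a2 by 0.61 ± 0.24, Slc36a1 by -0.37 ± 0.15 and Slc7a11 by 0.61 ± 0.27. Without control mouse 3 the count was 8 transporters and 2101 of all genes.

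Whether the extract's effect differed between depots was tested as the iWAT difference minus the eWAT difference, and 0 of 35 transporters passed, beside 6 of all genes (0.0543%). With the animal as a fixed block 0 of all genes passed, and with the animal as a random block 48 did, with 0 transporters called under either. At an unadjusted p of 0.05 by limma, 6 transporters and 1793 genes (16.2%) did. Slc38a9, positive in iWAT and negative in eWAT, came to 1.44 ± 0.34 (adjusted p = 0.0904). No difference is given for Slc38a5, which was detected on 0 iWAT arrays. Slc6a12 followed at -0.86 ± 0.28 (adjusted p = 0.173), Slc7a8 at -0.71 ± 0.29, Slc7a2 at -0.59 ± 0.26 and Slc38a10 at -1.06 ± 0.47 (adjusted p from 0.253 to 0.286). Slc15a2, called in iWAT and not in eWAT, missed the threshold for a difference between depots (1.36 ± 0.66, adjusted p = 0.314). Without iWAT control array 3 the count was 2 transporters and 428 of all genes.

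The last comparisons set iWAT against eWAT within each diet. In scoparia mice 4 of 35 transporters (11.4%) passed, beside 1170 of all genes (10.6%), and all 4, Slc38a5, Slc6a8, Slc15a3 and Slc7a4, were lower in iWAT. Of all genes 6.24% were lower and 4.35% higher in iWAT. In control mice 7 of 35 passed, beside 2743 of all genes (24.8%). Of these 7, Slc38a9, Slc38a5, Slc15a3 and Slc6a8 were lower in iWAT, beside 11.7% of all genes, and Slc6a12, Slc6a19 and Slc36a2 were higher, beside 13.1%. Both counts lay near the share of all genes. The groups did not overlap for 5 genes in scoparia mice (14.3%, against 24.9% of all genes) and for 6 in control mice (17.1%, against 17.9%). The median difference was -0.11 in scoparia and 0.00 in control mice, against 0.02 and 0.08 over all genes.

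Slc38a5 read 4.56, 4.46, 4.38 and 4.48 in iWAT and 6.23, 6.63, 5.97 and 6.27 in eWAT of scoparia mice, and 4.53, 4.78, 4.50 and 4.91 in iWAT and 5.33, 5.30, 5.57 and 5.82 in eWAT of control mice. The probe was detected on 0 of the 8 iWAT arrays, so its iWAT level is an upper bound, and it passed the detection filter through the eWAT arrays. The level was at least 2.46-fold lower in iWAT than in eWAT of scoparia mice (adjusted p = 9.93e-06) and at least 1.27-fold lower in control mice (adjusted p = 0.00401). Both calls held under the 28 alternatives that kept the gene. With probes detected on all 16 arrays it was not tested. Because the probe entered the test through its eWAT arrays, these p values and this count add no support beyond the detection counts.

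Slc6a8, the creatine carrier, read 9.21, 9.36, 9.15 and 8.56 in iWAT and 10.89, 11.23, 11.30 and 11.14 in eWAT of scoparia mice. In control mice it read 9.69, 9.37, 9.53 and 9.76 in iWAT and 10.92, 9.82, 11.67 and 10.90 in eWAT. The depots were apart in both diets, by -2.07 ± 0.29 in scoparia mice (adjusted p = 0.000303) and -1.24 ± 0.29 in control mice (adjusted p = 0.00783). In control mice eWAT array 2 lay close to the iWAT arrays, and the call was lost with the 8 control arrays alone (adjusted p = 0.0590). Without eWAT control array 2 the difference was -1.58 for Slc6a8.

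Slc15a3, a lysosomal carrier of peptides and histidine known from macrophages and other immune cells, read 7.67, 8.57, 8.35 and 8.81 in iWAT and 10.54, 10.46, 10.52 and 10.18 in eWAT of scoparia mice. In control mice it read 8.88, 8.27, 8.07 and 8.95 in iWAT and 10.78, 8.83, 11.07 and 10.67 in eWAT, where array 2 fell within the iWAT range. The difference was -2.07 ± 0.39 in scoparia mice (adjusted p = 0.00249) and -1.80 ± 0.39 in control mice (adjusted p = 0.00538), and both calls held under all 29 alternatives. Without eWAT control array 2 the control difference of Slc15a3 was -2.30. The mean level of the 8 macrophage markers, all tested, was 8.93 to 9.31 in iWAT and 10.71 to 11.06 in eWAT of scoparia mice, and 9.16 to 9.39 in iWAT and 9.73 to 11.13 in eWAT of control mice. All 8 were lower in iWAT in each diet, with median differences of -1.72 and -1.25. The 8 tested of 9 mesothelial markers averaged 4.72 to 4.77 and 4.52 to 4.82 in iWAT, against 7.15 to 8.20 and 6.98 to 7.40 in eWAT. B cell markers were called higher in iWAT for 7 of 7 in scoparia mice (median 3.41) and 1 of 7 in control mice (1.52). All 7 had a positive difference in each diet. T and NK cell markers were called higher for 7 of 8 (3.12) and 4 of 8 (1.73), with 1 called lower in control mice. Their differences were positive for 8 and 7 of 8. Endothelial markers were called higher for 2 and 4 of 8, with all 8 positive in each diet. Adipocyte markers were called higher for 0 and 3 of 8, with 7 of 8 positive in each diet. Of all genes 4.35% were called higher in scoparia mice and 13.1% in control mice. The part of these cells in the depot differences of the transporters was not tested.

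Slc7a4, a member of family 7 with no settled cargo, read 5.28, 5.60, 5.45 and 6.26 in iWAT and 6.39, 6.69, 6.36 and 6.50 in eWAT of scoparia mice (-0.84 ± 0.25, adjusted p = 0.0382). The groups did not overlap, but the call was lost with the animal as a block (adjusted p = 0.0871) and under 10 of 29 alternatives in all. In control mice it differed by -0.33 ± 0.25 (adjusted p = 0.328). Slc6a9, a glycine carrier, was also lower on every iWAT than on every eWAT array of scoparia mice, by -0.46 ± 0.16 (adjusted p = 0.0847), and Slc6a7 differed by -0.69 ± 0.22 (adjusted p = 0.0541).

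In control mice Slc38a9 averaged 6.71 ± 0.58 in iWAT and 8.19 ± 0.24 in eWAT, with no overlap (-1.48 ± 0.24, adjusted p = 0.000974). In scoparia mice the depots overlapped, at 7.71 ± 0.30 in iWAT and 7.76 ± 0.15 in eWAT (-0.05 ± 0.24, adjusted p = 0.940). Slc6a12 ran the other way, at 7.66 ± 0.26 in iWAT and 6.65 ± 0.30 in eWAT of control mice (1.01 ± 0.20, adjusted p = 0.00290), against 6.78 ± 0.29 and 6.64 ± 0.19 in scoparia mice (0.15 ± 0.20, adjusted p = 0.725). These depot differences share their iWAT arrays with the diet differences of the same genes, and the test between depots of the diet effect was not passed by either gene.

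Slc36a2, the proton-coupled carrier that marks brown adipocytes, read 9.74, 8.64, 8.52 and 9.72 in iWAT and 8.23, 8.24, 7.38 and 8.49 in eWAT of control mice (1.07 ± 0.33, adjusted p = 0.0291). The iWAT arrays all lay above the eWAT arrays, and arrays 1 and 4 were the high ones. Without both of them the difference was no longer called, as it was not without iWAT control array 1 or 4 or eWAT control array 1 or 3. The call was also lost with the 8 control arrays alone. Slc6a19, detected on 4 of 4 iWAT and 1 of 4 eWAT arrays of control mice, read 5.81, 5.59, 5.25 and 5.67 in iWAT and 4.86, 5.10, 4.79 and 4.87 in eWAT (0.68 ± 0.19, adjusted p = 0.0182). Its eWAT level thus lay near background. In scoparia mice it was detected on 3 of 4 iWAT and 1 of 4 eWAT arrays, so it passed the detection filter through its iWAT arrays. The p value of its depot difference therefore adds no support beyond the detection counts. The Slc6a19 call was lost without iWAT control array 1, without both iWAT control arrays 1 and 4, and with the 8 control arrays alone. In scoparia mice neither gene passed (adjusted p = 0.527 and 0.233).

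**Figure D5:**
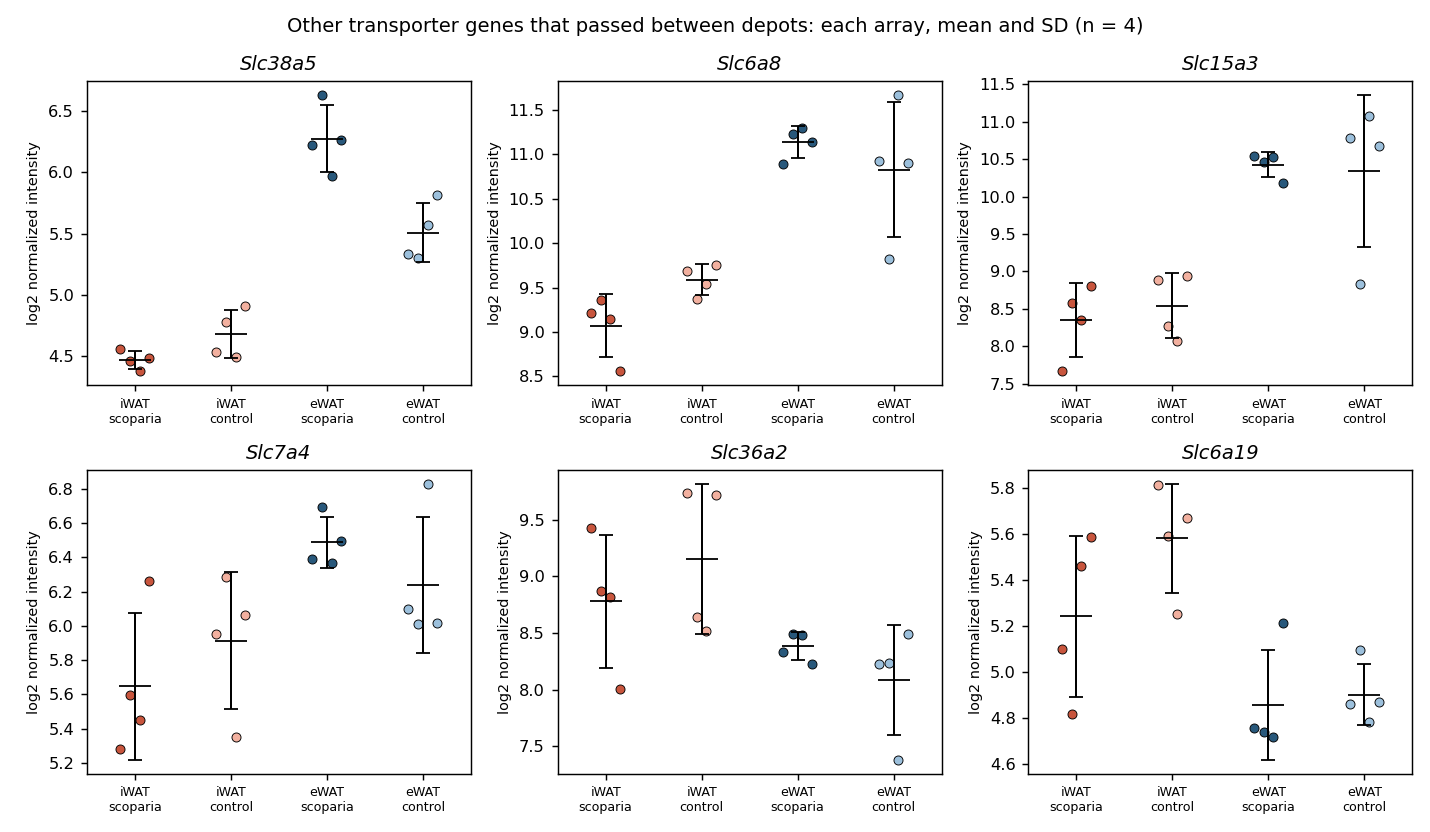
Log2 normalized intensity of the 6 transporter genes called between depots that the other plots do not show, for each array (points) in the 4 groups, with the group mean (wide tick) and SD (bar, n = 4). Slc38a5 was not detected on any iWAT array, so its iWAT points mark background, and eWAT control array 2 is the lowest of its group for Slc6a8 and Slc15a3.

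Several carriers with known roles in fat or immune cells were called in no comparison. Slc7a7, the light chain that exports cationic amino acids and is known from macrophages, averaged 7.17 ± 0.49 in iWAT scoparia, 7.05 ± 0.72 in iWAT control, 7.50 ± 0.18 in eWAT scoparia and 7.49 ± 0.38 in eWAT control mice. Its second probe, ILMN_2723826, differed from it in sign for diet in both depots, at differences near 0. Slc3a2 averaged 8.22 ± 0.35 in iWAT scoparia and 8.38 ± 0.55 in iWAT control mice. Slc43a2, a carrier of large neutral amino acids detected on 7 arrays, was at or near background in iWAT, with 0 of 4 iWAT control arrays against 4 of 4 eWAT control arrays, and was at least 1.06-fold lower there (adjusted p = 0.132). Slc38a4, detected on 7 of 16 arrays, and Slc1a1, a glutamate carrier whose 2 kept probes were both tested, were not called either.

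Genes that handle amino acids outside these families were set beside the carriers as lists, whose counts for diet in iWAT stand beside 8.8% of all genes called. Of 13 tested genes among other amino acid carriers, 1 was called in iWAT with the extract. It was Slc16a10, an aromatic amino acid carrier, lower by 0.78 ± 0.20 on the log2 scale (adjusted p = 0.0318). Of 25 tested genes of amino acid sensing by mTORC1, 1 was called, Kptn of the KICSTOR complex, lower by 0.78 ± 0.20 (adjusted p = 0.0334). Of 21 tested genes of the amino acid response through Gcn2 and Atf4, 2 were called, both higher. They were Ddit4, an inhibitor of mTORC1, by 1.00 ± 0.27 (adjusted p = 0.0373), and Cebpg, a partner of Atf4, by 0.71 ± 0.21 (adjusted p = 0.0479). The list's median difference was -0.31, opposite in sign to the 2 genes called. Of 10 tested genes of glutathione and glutamine use, 2 were called, both lower. They were Gss, glutathione synthetase, by 0.98 ± 0.28 (adjusted p = 0.0402), and Oplah, 5-oxoprolinase, by 0.84 ± 0.24 (adjusted p = 0.0433). In eWAT, over both depots and for the difference between depots each list had 0 calls.

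Between depots these lists moved in both directions. In scoparia mice Slc16a10 (-0.92 ± 0.20) and Slc25a13, the aspartate and glutamate carrier of mitochondria (-1.20 ± 0.26), were called lower in iWAT. So were Atf3 (-2.13 ± 0.35), Gclm, the modifier subunit of glutamate-cysteine ligase (-1.47 ± 0.28), and Glul, glutamine synthetase (-0.68 ± 0.19). Slc25a13 was detected on 1 of 4 iWAT and 4 of 4 eWAT arrays of these mice, and on 0 of 4 and 3 of 4 in control mice. It passed the detection filter through its eWAT arrays, so its calls add no support beyond these detection counts. Rragd of the Rag GTPases was also called lower, but was detected on 0 of 4 iWAT and 4 of 4 eWAT arrays. Its iWAT level was at background, so no size is given. No other tested member of the 4 lists passed in scoparia mice, beside 10.6% of all genes. In control mice 13.1% of all genes were called higher and 11.7% called lower in iWAT. Of the 13 other carriers 2 were called higher and 3 lower, with Slc25a13 among the lower ones. Of the 25 genes of the mTORC1 list 6 were called higher and 3 lower. Of the 21 of the Gcn2 and Atf4 list 5 and 2 were called, and of the 10 of the glutathione list 1 and 0. The last was Oplah (1.69 ± 0.24, adjusted p = 0.000389), and Asns, asparagine synthetase, was the first of the Gcn2 and Atf4 list (0.94 ± 0.20, adjusted p = 0.00519).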

How the data were processed

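Per the file headers, the authors deposited for each probe and array a linear intensity (average bead signal) with its detection p-value, and a separate table of normalized values. GenomeStudio and limma 3.18.13 are the tools listed in the submitters' processing notes, without their roles. Here the scanner intensities went through neqc (limma 3.58.1 in R 4.3.3, offset 16), which corrects background, quantile normalizes and takes log2. Probes with detection p under 0.05 on at least 4 of 16 arrays were kept (15052 probes, 11050 genes). A linear model with 4 group means over all arrays (lmFit, eBayes) gave the tests, and means over each mouse's arrays gave the effect over both depots. Benjamini-Hochberg adjustment ran over all genes, with a threshold of 0.05. Array names were updated through RefSeq's table for GRCm38.p6. The number of arrays limits the precision.

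The members and lists were chosen with earlier results of these data known. Genes named are those called, the 6 with the smallest p in each direction of each comparison, and 25 transporters of interest, of which 21 were tested. For a group with no detected array, the dim level was set per array to the probe's own value or the lowest value of any detected probe, whichever was higher, and the fold to the other group is a lower bound. The labels repeat animal numbers across depots but do not state pairing. Same-numbered arrays deviated together only weakly (r from -0.207 to 0.315), and the animal was a block only as an alternative. On simulated data for diet in iWAT (11050 genes), 55% of genes changed by 1 on the log2 scale and 99% of those changed by 2 were recovered. The simulated noise was independent, with 1 spread per gene in all groups and without the array splits seen here. These shares therefore do not carry over to the real arrays. One transporter that was not tested is not reported here.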

Additional observations from a re-analysis of the deposited data

Results flagged for a closer look

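Of 124 groups of 4 arrays checked (31 named genes in 4 groups), 6 held 1 array far from the other 3, and chance flags about 1 in 20 such groups. The value given is the gap to the nearest array as a share of the group's range. Slc38a1 read 5.43 on eWAT control array 4, against 4.995 for the nearest array (0.951). Slc6a19 read 5.21 on eWAT scoparia array 4, against 4.76 (0.917). Slc7a8 read 9.02 on eWAT control array 2, against 8.74 (0.916). Slc7a4 read 6.83 on eWAT control array 3, against 6.10 (0.893). Slc7a10 read 11.92 on iWAT control array 2, against 12.27 (0.875). Slc38a4 read 5.44 on iWAT control array 4, against 5.05 (0.845). Slc38a1, Slc38a4 and Slc6a19 were not detected on all arrays of these groups, so their gaps lie near background.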

How the results depend on the processing

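Counts of transporter genes called changed by over 1.5 times under these alternatives. For diet in iWAT (4 called) all kept probes as units gave 7 probes of 5 genes, and the 8 iWAT arrays alone, the replicate block on the number in the titles, and leaving out iWAT control arrays 1 and 4 gave 0 each. With array weights estimated by limma the counts were 14 between depots in scoparia mice (4), 2 for diet in eWAT (0), 8 over both depots (0) and 2 for the difference between depots (0), and the 8 control arrays alone gave 4 between depots in control mice (7). The estimate of weights for the 16 arrays stopped before it converged, so the counts with weights other than that over both depots are uncertain. Leaving out 1 array or mouse gave 0 to 6 for diet in iWAT, 0 to 0 in eWAT, 0 to 8 over both depots, 0 to 2 for the difference between depots, 3 to 5 between depots in scoparia mice and 5 to 10 in control mice. No called gene changed sign. The title numbers do not pair mice of different diets by the labels, and same-numbered arrays correlated between -0.319 and 0.312. With the animal as a fixed block the transporter counts were 4 in scoparia mice, without Slc7a4 (4 without the block), 8 in control mice (7) and 0 for the difference (0).

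Of all genes, 972 passed for diet in iWAT (487 higher, 485 lower), against 1896 with median scaling (665 and 1231), 2154 with array weights, 0 with the 8 iWAT arrays or with the block on title numbers, and 4 without iWAT control arrays 1 and 4. Leaving out 1 array gave from 0 to 3050. In eWAT 147 passed with array weights, 14 without scoparia array 1 and 3 without control array 3, and over both depots 2796 passed with array weights. For the difference between depots 6 passed, against 17 with median scaling or the mean of all kept probes, 11 with an offset of 50, 3 without the detection filter, 1 for probes detected on all 16 arrays or without iWAT control arrays 1 and 4, 2 with all probes, 626 with array weights, 48 with the animal as a random block, and 1 to 428 without 1 array. Between depots in scoparia mice (1170) 737 passed for probes detected on all 16 arrays, 3693 with array weights, 2080 with the 8 arrays, and 687 to 742 without iWAT array 3 or eWAT array 2 or 3. With median scaling 374 were higher and 886 lower in scoparia mice, against 481 and 689. In control mice (2743) 718 passed with the 8 arrays, 1189 without iWAT control arrays 1 and 4, and 1500 to 1775 without iWAT array 1 or 4 or eWAT array 1, 3 or 4. Median scaling moved the median of all genes from -0.08 to -0.24 for the difference between depots and from 0.02 to -0.09 between depots in scoparia mice. The cause of these changes was not tested. Carriers detected on few arrays were measured near background.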
